A study of Mus musculus with 6 samples.

Results

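Condensing spermatids are haploid male germ cells late in spermiogenesis. Here they were taken as the testis barcodes whose RNA is rich in protamine and transition protein messages. P is the percentage of a barcode's unique molecular identifiers (UMIs, each marking 1 captured RNA molecule) that came from Prm1, Prm2, Tnp1 and Tnp2. A barcode was kept when P was at least 10, when it held at least 10000 UMIs and when at most 20% of its UMIs were mitochondrially encoded. This gave 3721 of 54253 deposited barcodes, of which 51794 met the mitochondrial limit. The cells were selected on the level of these 4 genes, so the 4 levels are given as a description and support nothing else. The smoking group gave 666, 701 and 1303 such cells in libraries 1 to 3, and the control group 220, 188 and 643.

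Droplet 3′ single-cell RNA-seq was made from the left testis of adult male ICR mice, an outbred stock, to examine spermatogenesis under passive smoking. Smoking mice sat in a chamber for 12 weeks, 30 minutes a day, with the smoke of 15 cigarettes of 1.1 mg nicotine and 11 mg tar at 3.47 mg/m3, and control mice sat in a chamber without smoke. All mice were bought at 6 weeks of age and adapted for 1 week, whereas the age label reads 8 weeks. The labels give 7 mice per group and 3 libraries per group and do not tie a library to mice, so every p measures only the spread between these libraries.

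During spermiogenesis the histones of the spermatid nucleus are replaced first by transition proteins and then by protamines, small arginine-rich proteins that pack DNA into the compact sperm head. Transcription stops as the chromatin condenses. Messages for protamines and for much of the tail and midpiece are made early, stored with RNA-binding proteins and translated days later, so the RNA of a condensing spermatid is largely a stored pool. At the same time the acrosome covers the nucleus, the manchette shapes the head and is dismantled, and the flagellum receives its outer dense fibres, fibrous sheath and mitochondrial sheath.

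The 4 genes that defined the cells have promoters active in spermatids, where CREM, an activator that binds cyclic AMP response elements, is known to act on Tnp1, Prm1 and Prm2. Their 150 bases before the RefSeq start (GRCm38.p6), and those of Akap4, the main fibrous sheath gene, are shown because these genes mark the cells. Capitals mark TGATGTCA or TGACTTCA on either strand, both variants of the palindrome TGACGTCA and chosen after these sequences were seen.
Prm1 chr16:10796824-10796973 (minus strand): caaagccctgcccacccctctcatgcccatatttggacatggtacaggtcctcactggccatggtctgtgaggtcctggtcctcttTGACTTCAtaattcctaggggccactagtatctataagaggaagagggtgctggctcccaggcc
Prm2 chr16:10792106-10792255 (minus strand): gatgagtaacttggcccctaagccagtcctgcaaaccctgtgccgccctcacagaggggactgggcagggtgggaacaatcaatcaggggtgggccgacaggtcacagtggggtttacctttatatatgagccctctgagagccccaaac
Tnp1 chr1:73015900-73016049 (minus strand): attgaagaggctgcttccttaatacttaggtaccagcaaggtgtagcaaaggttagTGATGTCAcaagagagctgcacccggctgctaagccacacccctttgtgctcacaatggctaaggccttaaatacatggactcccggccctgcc
Tnp2 chr16:10788656-10788805 (minus strand): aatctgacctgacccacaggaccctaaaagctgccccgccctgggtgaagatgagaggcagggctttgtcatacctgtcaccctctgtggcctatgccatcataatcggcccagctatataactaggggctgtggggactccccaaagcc
Akap4 chrX:7067365-7067514 (plus strand): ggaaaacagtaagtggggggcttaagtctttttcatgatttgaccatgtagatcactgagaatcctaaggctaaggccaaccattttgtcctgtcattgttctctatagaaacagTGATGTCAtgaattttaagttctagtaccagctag
TGACTTCA began 64 bases before the start of Prm1. TGATGTCA began 94 bases before the start of Tnp1 and 35 bases before the start of Akap4, in the window of 1 of its RefSeq starts and not in the other. Neither string, nor TGACGTCA, was in these windows of Prm2, Tnp2 or Smcp. Of 32851 windows of the same length, 2.32% held TGATGTCA, 0.828% held TGACTTCA and 1.36% held TGACGTCA. The 9 matched genes among the 10 of highest level in the cells had 16 windows, of which 18.8% held TGATGTCA and 6.25% held TGACTTCA. These matches describe letters in a window. Prm1, Prm2 and Tnp2 lie beside each other on chromosome 16 and Tnp1 lies on chromosome 1.

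The libraries held 55751481, 65728120 and 78455606 UMIs in smoking libraries 1 to 3 and 40675108, 39607204 and 54915594 in control libraries 1 to 3. The cells gave 34.8% ± 5.38 of these UMIs in smoking and 19.1% ± 8.94 in control libraries (SD, n = 3), or 4868032 to 32113802 UMIs per library. Their median depth was 22970 ± 1706 UMIs in smoking and 21100 ± 991 in control libraries, and 31 of them held over 100000 UMIs. No cell barcode counted as a condensing spermatid in more than 1 library, although 369 barcodes recurred over the 15 pairs of libraries. Over these cells, every pair of libraries differed by more than sampling noise, with a chi-square of at least 3.62 times its degrees of freedom. This chi-square and Pearson's r of log2 CPM across genes, which are not independent replicates, both depend on depth. Control 3 had a chi-square per degree of freedom of 5.37, 5.74 and 10.1 with smoking libraries 1 to 3, and 12.1 and 9.39 with controls 1 and 2. Control 3 had r of 0.994, 0.993 and 0.993 with smoking libraries 1 to 3 and 0.987 and 0.984 with controls 1 and 2. Controls 1 and 2, the shallowest, had 0.985 with each other. By both measures control 3 stood nearer to smoking libraries 1 and 2 than to the other controls. It also held the most UMIs of these cells among the controls, 16044034, and the part of depth in this was not tested. Results that rest on control 3 are given with and without it.

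Among the 6147 barcodes with at least 10000 UMIs, P fell into separate low and high ranges in every library. Only 251 of them had P between 4 and 16. P had a median of 29.8% ± 0.495 over the condensing spermatids in smoking and 27.96% ± 1.51 in control libraries (SD, n = 3), with a highest value of 38.1%. Just inside the limit, 53 barcodes with P from 10 to under 12 had 4512 counts of Smcp per 1000000 UMIs (CPM) outside the 4 defining genes and 22.3 of the spermatocyte gene Sycp3. Just outside it, 27 barcodes with P from 8 to under 10 had 3588 of Smcp and 159 of Sycp3. Akap4 did not separate them, at 825 inside and 830 outside. The round spermatid gene Acrv1 was higher inside, at 521, than outside, at 479. The UMI limit cut through a continuous range, since 162 barcodes with 10000 to under 11000 UMIs had a median P of 25.9% and 151 barcodes with 9000 to under 10000 UMIs had 24.04%. In the lowest 10% of barcodes by UMIs, the median P of a library lay between 8.40% and 11.1%.

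**Figure D1:**
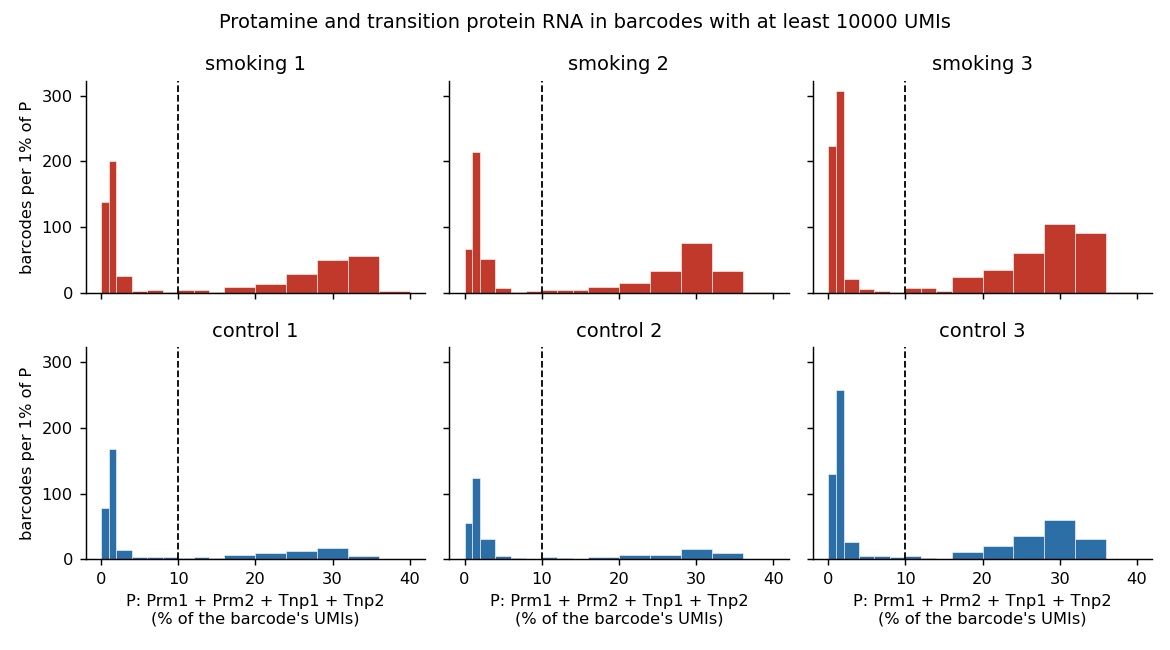
Barcodes per 1% of P (vertical axis) against P (horizontal axis, % of UMIs), for barcodes with at least 10000 UMIs and at most 20% mitochondrial UMIs in each library, with smoking libraries above and control libraries below. The dashed line at P of 10 falls in the sparse range, with 27 barcodes at P 8 to 10 and 53 at P 10 to 12 over all libraries.

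Prm1, the protamine common to all mammals, took 11.6%, 10.9% and 11.2% of the cells' UMIs in smoking libraries 1 to 3, against 9.12%, 9.94% and 10.8% in controls. Prm2, made as a precursor that is cleaved on DNA, took 7.73% ± 0.451 in smoking and 6.93% ± 0.406 in control libraries (SD, n = 3). Tnp1 took 4.27% ± 0.214 and Tnp2 5.12% ± 0.282 in smoking libraries, against 3.85% ± 0.236 and 5.01% ± 0.160 in controls. The order Prm1, Prm2, Tnp2, Tnp1 held in the group means. Because these 4 genes take up a share that differs between cells, levels of all other genes are given below as remainder CPM, the UMIs of a gene per 1000000 UMIs outside the 4. UMIs at the 3′ end count molecules, so no level was divided by gene length.

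The label held against markers that the rule did not use. Smcp, which encodes a cysteine-rich protein of the sperm mitochondrial capsule, was the highest gene outside the 4, with 9268, 9124 and 10230 remainder CPM in smoking libraries 1 to 3 and 8048, 8013 and 9308 in controls. Akap4 had 1834, 1765 and 1917 remainder CPM in smoking and 1525, 1558 and 1799 in control libraries. Both were detected in 100% of the cells of every library. Of earlier germ cells, the 7 round spermatid markers, all detected, summed to 365 to 479 CPM of all UMIs in smoking and 402 to 737 in control libraries, and the 7 spermatocyte markers to 198 to 234 and 224 to 295. The same lists summed to 2405 to 3382 and 1789 to 2069 in smoking and 2530 to 2959 and 1774 to 2185 in control libraries among barcodes with P from 1 to under 10 and the same depth.

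Of somatic cells, the 6 Leydig markers summed to 3.61 to 14.2 CPM in smoking and 2.67 to 19.7 in control libraries. The 7 macrophage markers summed to 23.5 to 33.4 and 20.1 to 25.5, of which C1qb alone was 22.7 to 29.3 and 19.2 to 24.4, while the other 6 averaged at most 0.485 each. The 5 endothelial markers summed to 4.29 to 5.95 and 4.93 to 8.42, and the 6 myoid and mesenchymal markers to 2.90 to 4.15 and 1.44 to 2.87. The 8 Sertoli markers summed to 131 to 162 CPM in smoking and 176 to 254 in control libraries, without overlap. Most of this sum was Defb19, at 82.1 to 106 in smoking and 120 to 189 in control libraries, and Aard, at 17.9 to 22.6 and 25.4 to 37.3. Clu, at 12.1 to 16.3 and 13.9 to 16.1, and Ctsl overlapped between the groups, and Sox9, Wt1 and Rhox5 averaged 0.466, 0.615 and 0.517 over all libraries. In the lowest 10% of barcodes by UMIs the 8 summed to 724 to 900 in smoking and 387 to 564 in control libraries. The 7 spermatogonial markers summed to 14.4 to 16.5 and 16.6 to 22.9, also without overlap. Of 4 globin genes, Hba-a2 and Hbb-bt were at 0 and the list reached at most 0.0932 in smoking and 0.312 in control libraries. If each cell held as much free RNA as the median UMIs of the lowest 10% of barcodes, it would make up 6.65% to 8.29% of the cells' UMIs. This rests on that assumption and is not a measured limit. A doublet score marked 554 of the 3721 cells, 15.3% ± 2.19 in smoking and 17.3% ± 5.90 in control libraries (SD, n = 3). The number marked in a library was preset from its barcode count, and came to 3935 of all 54253 barcodes. These cells were thus marked more often than barcodes at large.

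The highest genes outside the 4 included messages of the sperm tail, the midpiece and lipid binding. After Smcp came 1700027A15Rik, an antisense gene annotated on the plus strand at chr1:72984844-73025507 (mm10), with 8682, 8196 and 8809 remainder CPM in smoking and 5853, 6575 and 7933 in control libraries. Its span contains Tnp1, which lies on the minus strand, and strand use in counting was not stated, so its reads and those of Tnp1 cannot be told apart and its level is not independent of the rule. Gstm5, a glutathione S-transferase, had 6980 ± 627, Gsg1, a germ cell membrane protein, 6610 ± 587, and Meig1, which works in the manchette in mice, 6566 ± 273 (SD, n = 6 libraries). Fabp9, a testis fatty acid binding protein, had 6405 ± 532, Dbil5, an acyl-CoA binding protein, 6253 ± 652, and Odf2, an outer dense fibre protein, 6136 ± 575. Gm5617 had 6046 ± 570 and Hmgb4, a testis HMG-box protein, 5925 ± 372. The 10 highest genes took 7.18% ± 0.277 of the UMIs outside the 4 in smoking and 6.37% ± 0.422 in control libraries, and the 50 highest took 21.2% ± 0.564 and 19.4% ± 1.00 (SD, n = 3), without overlap between the groups in either case.

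To place these levels, the cells were set beside the 1734 barcodes of the same depth and mitochondrial limit with P from 1 to under 10. These were a mixture of earlier spermatids with spermatocytes, spermatogonia and some somatic cells. Their 6 Leydig markers summed to 286 to 1907 CPM in smoking and 909 to 1194 in control libraries. Their 7 spermatogonial markers summed to 231 to 495 and 326 to 547. No test is given, since the rule split these barcodes. Of 9313 genes with at least 10 remainder CPM on either side, 2017, or 21.7%, were higher in the condensing spermatids, with a median log2 ratio of -1.60. Most genes were therefore lower in the condensing spermatids than in these barcodes, and fewer were higher.

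The largest log2 ratio was that of Cby3, a chibby family protein, at 4.81 ± 0.22 (SD, n = 6 libraries). It had 386, 428 and 353 remainder CPM in smoking and 356, 323 and 385 in control libraries, and averaged 12.4 ± 2.26 in the P 1 to 10 barcodes. Cyp2a12, a cytochrome P450 otherwise known from liver, averaged 344 against 12.0 ± 2.29. Klk1b8, of the tissue kallikrein family, had 1148 ± 129 against 49.96 ± 6.28, and Defb33, a beta-defensin, 977 ± 81.8 against 45.3 ± 8.26. Col20a1, a collagen chain, had 486 ± 14.4 against 22.9 ± 2.95, and Spata32 had 481 ± 49.8 against 23.9 ± 1.40. 1700084D21Rik, Gm4665, 1700008B11Rik, Gm11634, 1700080E11Rik and Tex46 completed the 12 largest, with log2 ratios from 4.17 to 4.65. All 12 were higher in the condensing spermatids in 6 of 6 libraries. Klk1b8 belongs to a family of near-identical copies between which the counting could split reads, so its level is uncertain.

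The smallest ratios were those of Cyp17a1, Fabp3, Lcn2, Insl3, Agt, Akr1cl, Ptgds and Ncl, with log2 ratios from -6.60 to -5.10. Cyp17a1, a steroid synthesis enzyme, and Insl3, a hormone, are Leydig cell genes. Cyp17a1 had 3.46 ± 3.63 remainder CPM in the condensing spermatids and 419 ± 221 in the P 1 to 10 barcodes. The ratios of Leydig genes go with the Leydig markers in those barcodes, whose part in them was not tested. Ncl, which encodes nucleolin of the nucleolus, had 7.78 ± 0.926 against 318 ± 114.

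**Figure D2:**
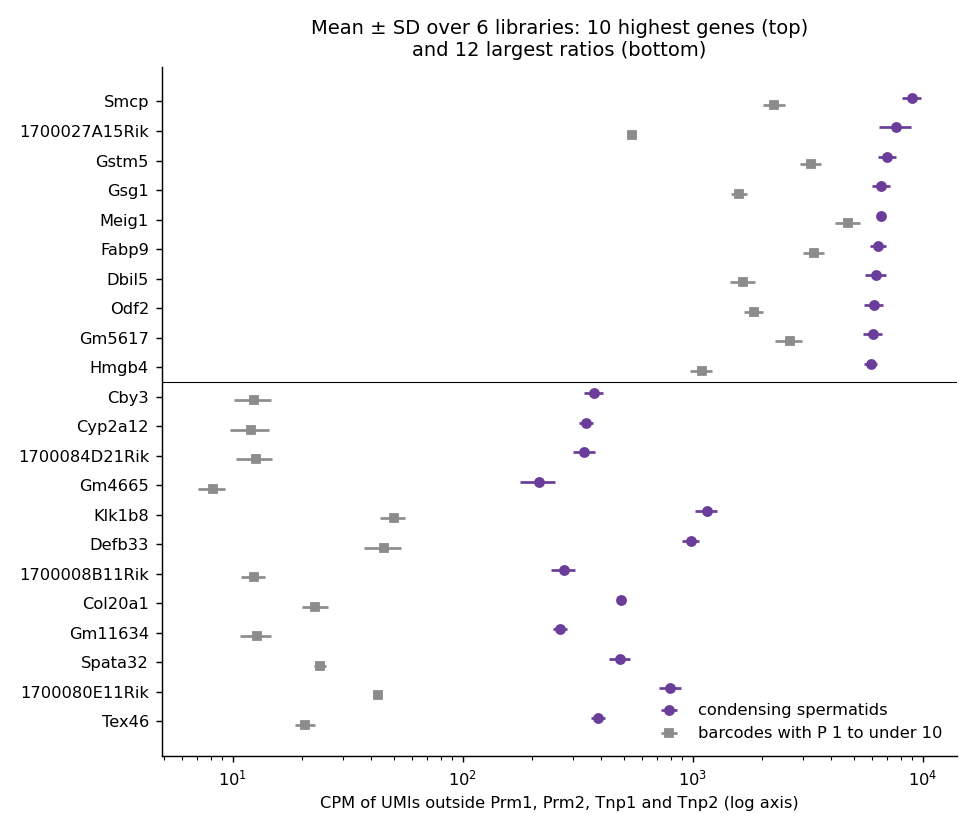
Remainder CPM (log axis, mean ± SD over 6 libraries) of the 10 genes of highest level, above the line, and the 12 of largest ratio, below it, in condensing spermatids (circles) and barcodes with P 1 to under 10 (squares). Smcp stands at 8999 against 2263 and Cby3 at 372 against 12.4.

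Genes of chromatin condensation outside the defining 4 were abundant. Hmgb4 had 5925 remainder CPM against 1091 in the P 1 to 10 barcodes, and Prm3, an acidic protamine-like gene of the same chromosome 16 cluster, had 5371 against 1576. H2afb1, a short histone H2A variant, had 2398 against 223, H1fnt, a spermatid linker histone, 2385 against 474, and Hils1, another linker histone, 2180 against 1302. These 4 were named after their values were seen. Over the list, 8 of 17 genes with at least 10 remainder CPM were higher in the condensing spermatids, or 47.1% beside 21.7% of all genes.

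Tail genes followed. Of the outer dense fibre and fibrous sheath list, 12 of 21 genes were higher than in the P 1 to 10 barcodes, or 57.1% beside 21.7% of all genes. Odf2 had 6136 against 1845 remainder CPM and Spa17, a protein of the fibrous sheath, 3940 against 1967. Of the midpiece list, 10 of 22 were higher, or 45.5%, with a median log2 ratio of -0.39. Gpx4, the selenoenzyme that becomes a structural protein of the mitochondrial capsule, had 5526 ± 367 against 2401 ± 213. Of the axoneme list, 7 of 37 were higher, or 18.9%, below the share over all genes. Its 2 highest genes were the dynein light chains Dynll2, at 3231 against 1253, and Dynll1, at 2455 against 1385.

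Sperm glycolysis, which supplies the tail with ATP, had 11 of 22 genes higher. Gapdhs, the sperm glyceraldehyde-3-phosphate dehydrogenase anchored to the fibrous sheath, had 4289, 4252 and 4639 remainder CPM in smoking and 3662, 3637 and 4284 in control libraries, and averaged 928 in the P 1 to 10 barcodes. Ldhc, the germ cell lactate dehydrogenase, had 3980 ± 606 against 4716 ± 452. Respiration genes stood apart from this, with 3 of 93 nuclear oxidative phosphorylation genes and 0 of 12 mitochondrially encoded genes higher in the condensing spermatids. Their summed level was 10460 ± 1010 and 3479 ± 573 remainder CPM in the condensing spermatids, against 25020 ± 1080 and 22480 ± 6730 in the P 1 to 10 barcodes. The highest were Uqcrq, of complex III, at 789 against 1075, and mt-Co3, of cytochrome c oxidase, at 808 against 5089. The median mitochondrial share of a cell was 0.0308% ± 0.00278 in smoking and 0.0403% ± 0.0107 in control libraries (SD, n = 3), and 39 of the 3721 cells exceeded 5%.

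The head was represented by its cytoskeleton more than by its acrosome. Of the perinuclear theca list, 14 of 18 genes were higher in the condensing spermatids, with a median log2 ratio of 1.28. Actrt2, an actin-related protein of the theca, had 2592 ± 190 against 528 ± 45.0, and Spata20 had 1331 ± 110 against 546 ± 65.3. Of the acrosome list, 3 of 27 genes were higher, or 11.1% beside 21.7% of all genes, with a median of -1.97 beside -1.60. Crisp2, a cysteine-rich secretory protein of acrosome and tail, had 3961 ± 345 against 1765 ± 202, and Spaca9 had 1904 ± 197 against 822 ± 97.0. Acrv1 and Spaca1, named after their values were seen, had 90.2 ± 42.9 and 95.5 ± 43.3 in the condensing spermatids, against 446 ± 56.1 and 680 ± 81.8.

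Of the manchette list, 5 of 24 genes were higher, or 20.8%, near the 21.7% of all genes, with a median log2 ratio of -1.50. Its 2 genes of highest level were Meig1, at 6566 against 4736 remainder CPM, and Spata6, which joins head and tail in mice, at 2841 against 964. Of sperm ion transport genes, 2 of 16 were higher, or 12.5%, with a median of -1.60. Catsperz, a subunit of the sperm calcium channel, had 400 ± 73.7 against 846 ± 114, and Atp1a4, the sperm sodium pump subunit, 232 ± 13.3 against 87.3 ± 6.59. Of spermatid kinases and phosphatases, 10 of 25 were higher. Among them Tssk6, a kinase that is required for chromatin condensation in mice, had 2480 ± 252 against 310 ± 24.9, and Ppp1r11, an inhibitor of protein phosphatase 1, 2868 ± 265 against 1264 ± 128.

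Regulators of stored RNA were mixed. Of the mRNA storage and translation list, 4 of 25 genes were higher in the condensing spermatids. Eif4e, the cap-binding factor, had 1229 ± 52.7 remainder CPM against 251 ± 30.6, and Paip2, which holds back poly(A)-binding protein, 1307 ± 97.4 against 516 ± 37.1. Ribosomal protein genes summed to 48780 ± 2090 against 63490 ± 6870, and 10 of 81 were higher, or 12.3%, with a median of -0.65. Rps20 was at 4056 ± 380 against 2024 ± 81.6 and Rpl41 at 3370 ± 273 against 2191 ± 139. Of the spermatid transcription regulators 7 of 21 were higher, or 33.3%, with a median of -0.91. Spz1, a testis leucine zipper factor, had 2605 ± 268 against 682 ± 68.5, and Fhl5, the CREM coactivator also called ACT, had 495 ± 121 against 384 ± 46.1.

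Genes for protein removal and protection completed the lists, and in each list most genes were lower in the condensing spermatids. The share higher was 32.7% for ubiquitin and proteasome, 27.3% for autophagy, 37.0% for xenobiotic and oxidative stress and 44.0% for heat shock. Over all genes it was 21.7%. The median log2 ratios were -1.91, -1.42, -2.07 and -1.49 in that order, beside -1.60 over all genes. The genes named here are the 2 of highest level in each list. Of the ubiquitin and proteasome list 16 of 49 were higher, led by the ubiquitin-conjugating enzyme Ube2n, at 2313 ± 138 against 740 ± 60.5, and the ubiquitin ligase Rnf138, at 2233 ± 109 against 807 ± 76.1. Of the autophagy list 6 of 22 were higher, led by the ubiquitin-like autophagy proteins Gabarapl1, at 2677 ± 180 against 449 ± 19.0, and Map1lc3a, at 1013 ± 56.7 against 717 ± 54.1. Of the xenobiotic and oxidative stress list 10 of 27 were higher, led by Gstm5 and Gpx4. Of the heat shock list 11 of 25 were higher, led by Dnajb3, a testis DnaJ co-chaperone, at 4115 ± 312 against 1237 ± 123, and Hspb9, a testis small heat shock protein, at 2741 ± 285 against 1335 ± 196.

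The sex chromosomes were not used by the rule. X-linked genes gave 2.14% ± 0.0612 of UMIs outside the 4 genes in the condensing spermatids, against 1.48% ± 0.0538 in the P 1 to 10 barcodes and 0.762% ± 0.0603 in barcodes of the same depth with P under 1 (SD, n = 6 libraries). Y-linked genes gave 0.0191% ± 0.00251, against 0.0580% ± 0.00638 and 0.0412% ± 0.00446. A spermatid carries an X or a Y chromosome and shares RNA with its sisters through bridges. The X-linked genes of highest level, picked after their values were seen, were Akap4 with 1733 ± 157 remainder CPM, BC061195 with 1581 ± 127 and Hypm with 1516 ± 167. Each was higher than in the P 1 to 10 barcodes in 6 of 6 libraries, with log2 ratios of 2.04, 1.97 and 2.42.

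The cells were not uniform. Cut into tertiles of P at 26.9% and 31.2%, they differed in many genes, among them some that were high at low P and nearly gone at high P. Ccdc185 had 526 ± 75.2 remainder CPM in the lowest tertile, 130 in the middle and 24.2 ± 5.39 in the highest (SD, n = 6 libraries), a log2 ratio of -4.40. Fam71b had 517 ± 96.3, 40.6 and 29.4 ± 4.84, and Hemgn, which encodes the nuclear protein hemogen, had 611 ± 148, 56.3 and 42.9 ± 6.19. Cst13, a cystatin, had 1128 ± 114, 426 and 90.4 ± 7.17, and Cdyl, a chromodomain protein that acts on histone marks, had 905 ± 88.4, 316 and 80.0 ± 13.5. 4921530L21Rik, Trim80, of the tripartite motif family, and Dusp13, a dual specificity phosphatase, completed the 8 smallest, with ratios from -3.63 to -3.52. All 8 were lower in the highest than in the lowest tertile in 6 of 6 libraries. Fam71b and Hemgn dropped mainly between the lowest and the middle tertile, Cst13 and Cdyl also between the middle and the highest.

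Rises along P were smaller. 1700034E13Rik had 930 ± 76.7 remainder CPM in the lowest tertile, 1660 in the middle and 1990 ± 59.1 in the highest, a log2 ratio of 1.10. Gm4665, Cyp2a12, Cby3, Defb33 and Spata32, which were also among the largest ratios over the P 1 to 10 barcodes, had ratios from 0.89 to 1.05. Rplp0, a stalk protein of the ribosome, had 1042 ± 61.8, 1558 and 1965 ± 87.9, and Tex37 had 969 ± 89.7, 1559 and 1801 ± 99.3. Of 5237 genes with at least 10 remainder CPM, 1764, or 33.7%, were higher in the highest than in the lowest tertile, with a median log2 ratio of -0.36. A higher share of ribosomal protein genes was higher, 53 of 77, with a median of 0.25. For the acrosome list it was 3 of 25 with a median of -1.48, and for the mitochondrially encoded list 0 of 11 with a median of -2.45. Ybx1 and Ybx3, messenger RNA storage proteins named after their values were seen, had ratios of -3.04 and -2.57. Median depth was 20740, 21240 and 23570 UMIs in the lowest, middle and highest tertile (means over 6 libraries), and its part in these ratios was not tested.

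**Figure D3:**
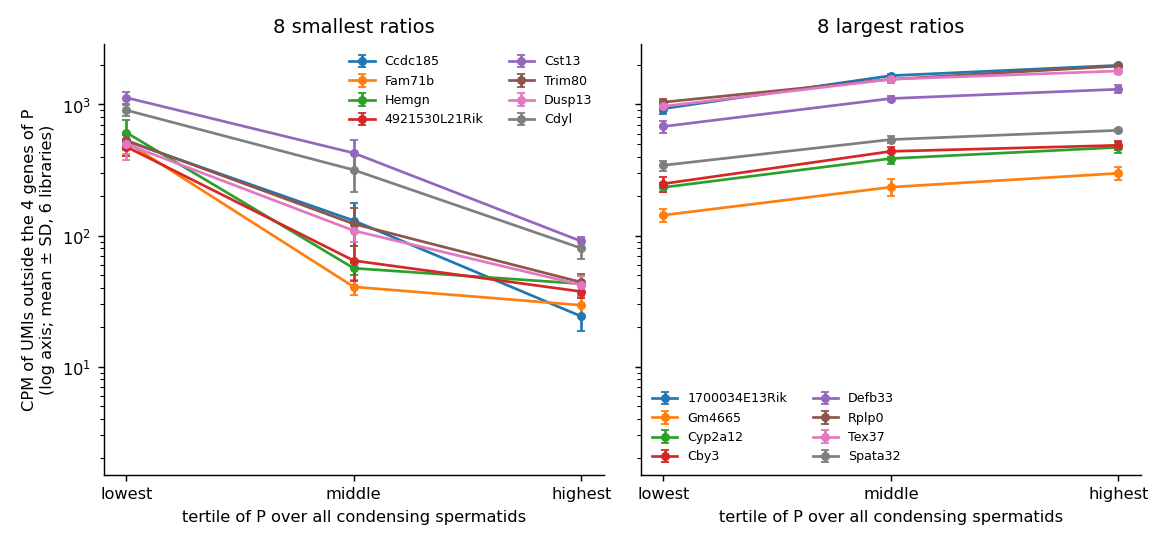
Remainder CPM (log axis, mean ± SD over 6 libraries) across the lowest, middle and highest tertile of P, for the 8 genes of smallest ratio (left) and the 8 of largest ratio (right). Ccdc185 ends at 24.2 after 526, and 1700034E13Rik ends at 1990 after 930.

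At 10000 UMIs or more, condensing spermatids took a larger share of each smoking library than of any control library, in a design too small for the test to pass. Their share of barcodes within the mitochondrial limit was 8.01%, 8.01% and 13.8% in smoking libraries 1 to 3, against 2.66%, 2.18% and 7.63% in controls. The lowest smoking library stood just above control 3, so the groups did not overlap, and the means were 9.95% ± 3.37 and 4.16% ± 3.02 (SD, n = 3). The difference was 5.80 percentage points, with an exact two-sided permutation p of 0.1, the smallest that 3 against 3 libraries allow, so no p under 0.05 could be reached. Without control 3 the difference was 7.53 points, and without smoking library 3 it was 3.85. Among barcodes with at least 10000 UMIs alone, the share was 64.6% ± 3.68 in smoking and 47.7% ± 8.91 in control libraries, again without overlap (exact permutation p = 0.1). The lack of overlap depended on the UMI limit. At a minimum of 5000 UMIs the share was 9.89%, 10.7% and 16.3% in smoking libraries 1 to 3, against 4.10%, 3.997% and 10.1% in controls, so that control 3 lay above smoking library 1 (exact permutation p = 0.2). With no UMI limit, 3055 ± 1160 barcodes per smoking library and 2889 ± 998 per control library had P of at least 10 (SD, n = 3, exact permutation p = 0.8), and smoking library 3 had the fewest, 2014. Low-UMI barcodes had a median P near 10, as given above, so this count does not single out condensing spermatids. Library UMIs were higher in all smoking libraries, and their part in passing the limit was not tested. A share of captured barcodes is no count of cells in the testis.

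Since P chose the cells, the mix along P is given as a description, with no test. The highest tertile held 42.6%, 30.5% and 36.8% of the cells in smoking libraries 1 to 3, against 13.2%, 30.3% and 27.5% in controls. The lowest tertile held 30.1% ± 2.29 in smoking and 42.7% ± 8.81 in control libraries (SD, n = 3). Neither tertile share overlapped between the groups, though smoking library 2 and control 2 were close in the highest.

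**Figure D4:**
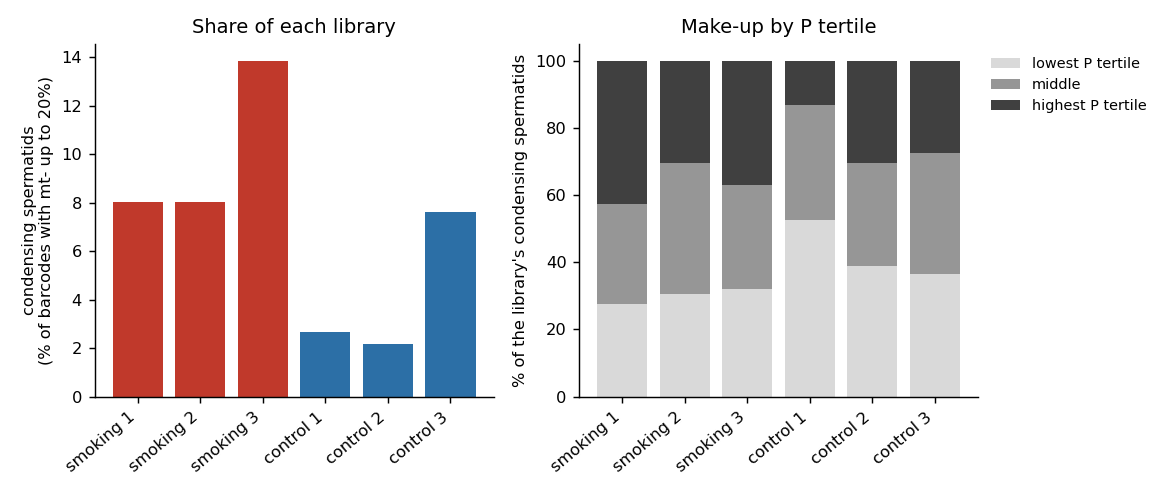
Left: condensing spermatids as a percentage of barcodes within the mitochondrial limit in each library. Right: make-up of each library's cells by tertile of P, in percent. Smoking libraries sit at 8.01% to 13.8% on the left, and control libraries at 2.18% to 7.63%.

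At equal depth the median number of detected genes per cell was lower in each smoking library than in any control library. Thinned to 10000 UMIs, a cell had a median of 1928, 1958 and 1926 detected genes in smoking libraries 1 to 3, against 2105, 2068 and 1968 in controls. The groups did not overlap, and the means were 1938 ± 17.8 and 2047 ± 70.9 (SD, n = 3), a difference of -110 with an exact permutation p of 0.1. Unthinned medians were 2941 ± 118 and 2963 ± 118 genes. With the 4 defining genes left out and 5000 UMIs kept, medians were 1625 ± 8.52 in smoking and 1688 ± 46.1 in control libraries, again without overlap. The mix along P given above also differed between the groups, and its part in the difference in detected genes was not tested.

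Gene by gene, no gene passed the test between smoking and control. UMIs were summed over the cells of each library and tested with edgeR's quasi-likelihood test over 12374 genes, and 0.0% had a Benjamini-Hochberg adjusted p under 0.05. At an unadjusted p under 0.05 there were 2027 genes, or 16.4%, of which 9.04% of all genes tested were lower and 7.34% higher in smoking. DESeq2 called 55 genes higher and 227 lower, and limma-voom called 0. The count of 0 rested on control 3, since without it edgeR called 849 genes higher and 763 lower. In numbers of cells matched over the tertiles of P in each library, edgeR again called 0 genes, with 800 at an unadjusted p under 0.05.

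The 5 genes of smallest p at a mean of at least 10 CPM were all lower in smoking and shared an adjusted p of 0.0522 by edgeR, just short of the threshold. They lie apart in the genome (mm10, GENCODE M21), Fam71b at chr11:46396559-46407982, Hemgn at chr4:46393989-46413506, Abra at chr15:41864076-41869720, Dcdc2c at chr12:28437795-28552399 and Faiml at chr9:99229376-99237239. Levels here are TMM-scaled CPM over all genes. Fam71b had 130, 136 and 119 in smoking libraries 1 to 3 and 255, 230 and 201 in controls, a log2 fold change of -0.87 ± 0.11 (SE). Hemgn had 151, 162 and 133 in smoking and 314, 299 and 230 in control libraries, at -0.96 ± 0.13. Control 3 was the lowest control in each of these genes and still lay above every smoking library. Abra, which encodes an actin-binding protein, averaged 20.6 ± 0.434 and 41.0 ± 7.21 (SD, n = 3), at -1.02 ± 0.15. Dcdc2c, a doublecortin domain protein, averaged 26.0 ± 3.02 and 51.4 ± 7.56, at -1.02 ± 0.15. Faiml averaged 33.5 ± 5.55 and 67.5 ± 9.15, at -1.04 ± 0.15. Without control 3 their adjusted p ran from 0.000864 to 0.00222.

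All 5 belong to the genes that are high at low P, with log2 ratios of the highest over the lowest tertile from -4.25 to -3.78 and all 5 were higher in the highest tertile in 0 of 6 libraries. Within the lowest tertile Fam71b had 434 ± 43.5 remainder CPM in smoking and 600 ± 26.1 in control libraries (SD, n = 3), and Hemgn had 490 ± 68.3 and 731 ± 79.1. In the middle tertile Fam71b had 42.0 ± 6.16 and 39.1 ± 4.57, and in the highest 29.8 ± 1.92 and 29.0 ± 7.37. In matched numbers over the tertiles the log2 fold changes were -0.64 for Fam71b, -0.77 for Hemgn, -0.87 for Abra, -0.80 for Dcdc2c and -0.84 for Faiml, with adjusted p of 0.504 to 0.619 by edgeR. The groups thus stood furthest apart in the tertile of lowest P, and the part of an uneven mix within that tertile was not tested. The lowest 10% of barcodes by UMIs held 160 remainder CPM of Fam71b and 177 of Hemgn. With free RNA subtracted the folds were -0.93 and -1.01.

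The defining genes stayed in the edgeR fit, but their p is not given, since their level chose the cells. Smcp, which the rule did not use, averaged 7386 ± 621 TMM-scaled CPM in smoking and 5854 ± 984 in control libraries (SD, n = 3), a log2 fold change of 0.30 ± 0.12 (SE) with an adjusted p of 0.253 by edgeR. In equal tertiles it was 0.19, with an adjusted p of 0.769.

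None of the 19 gene lists held a called gene, so lists are described by counts. Over all 12374 genes the median log2 fold was -0.00, 50.6% of folds were negative, and groups that did not overlap were seen for 13.1% of genes higher and 9.47% lower in smoking. Folds and overlaps were taken after TMM scaling, with factors of 0.9215, 0.9528 and 0.9055 in smoking libraries 1 to 3 and 1.133, 1.146 and 0.9685 in controls. Meig1 did not overlap after this scaling, but did in remainder CPM, at 6313 to 6753 in smoking and 6251 to 6944 in control libraries. Of 81 ribosomal protein genes 62 were positive, with a median of 0.20, and 32 were higher without overlap. Rps20 averaged 3363 ± 108 TMM-scaled CPM in smoking and 2606 ± 433 in control libraries. In remainder CPM it stood closer, at 4295, 4337 and 4409 in smoking and 3614, 3545 and 4133 in control libraries, also without overlap. Of 27 acrosome genes 21 were negative, with a median of -0.20, and 3 were lower without overlap. Of 22 glycolysis genes 14 were positive, with a median of 0.21 and 9 higher without overlap, Gapdhs at 0.31 ± 0.12 (SE) among them. In equal tertiles these 3 medians kept their sign at 0.12, -0.13 and 0.13. The median of the 13 mitochondrially encoded genes did not, with -0.11 over all cells and 0.12 in equal tertiles, where 11 of 13 were positive. With free RNA subtracted it was -1.58, over 12 genes.

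Tail and condensation lists had small positive medians, 0.10 for the 17 chromatin condensation genes outside the defining 4 and 0.11 each for outer dense fibre and fibrous sheath, midpiece, and spermatid kinases and phosphatases. Autophagy stood at 0.08, heat shock at 0.05, axoneme at 0.04, xenobiotic and oxidative stress at 0.03 and perinuclear theca at 0.02. Gstm5, the highest gene of the xenobiotic and oxidative stress list, at 0.30 ± 0.12 (SE), had an unadjusted p of 0.0250 and overlapping groups. Negative medians were -0.01 for mRNA storage and translation, -0.04 for manchette, -0.06 for ubiquitin and proteasome, -0.07 for transcription regulators, -0.08 for nuclear oxidative phosphorylation and -0.09 for sperm ion transport. Fhl5 among the transcription regulators had -0.43 ± 0.10 (SE), with 308 ± 17.5 TMM-scaled CPM in smoking and 404 ± 33.4 in control libraries. The median changed sign under at least 1 alternative for 6 lists: mRNA storage and translation, manchette, axoneme, ubiquitin and proteasome, xenobiotic and oxidative stress, and mitochondrially encoded genes.

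**Figure D5:**
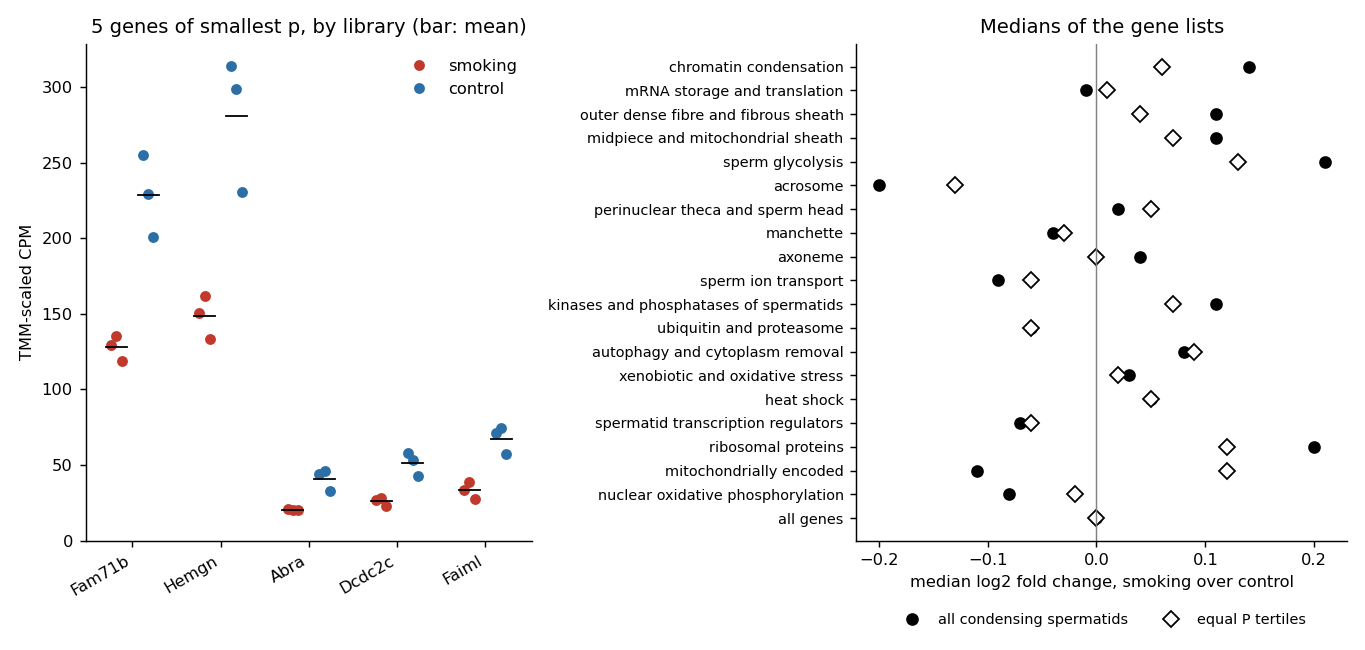
Left: TMM-scaled CPM of the 5 genes of smallest p in each library, with the mean as a bar. Right: median log2 fold change, smoking over control, of each gene list over all condensing spermatids (filled circles) and in equal tertiles of P (open diamonds). The acrosome list lies at -0.20 and -0.13, the ribosomal protein list at 0.20 and 0.12.

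The effect of smoking was also compared with that in the P 1 to 10 barcodes of the same libraries, to ask whether it differed between them. By limma on within-library differences, 0 of 11689 genes passed, or 0.0%, and 667, or 5.71%, had an unadjusted p under 0.05. The 5 genes of smallest p were picked for their smoking effect in these same cells, so their values here are a description. For Fam71b the log2 effect in the condensing spermatids minus that in the P 1 to 10 barcodes was -0.66, with an unadjusted p of 0.00272 by limma. Hemgn, Abra, Dcdc2c and Faiml had -0.57, -0.74, -0.61 and -0.42, with unadjusted limma p of 0.0218, 0.026, 0.0332 and 0.112. The adjusted limma p of the 5 was 0.753 to 0.754. These data therefore hold no gene whose response was shown to differ between condensing spermatids and the P 1 to 10 barcodes, which were of mixed make-up as given above.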

How the data were processed

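The 6 testis libraries, 3 from smoking and 3 from control mice, were analysed. For 30905 genes the authors deposited whole-number UMI counts in each barcode, not normalized, from 10x 3′ chemistry per the labels' protocols. Per the file headers the software version was 3.1.0. Cell Ranger 7.1.0, CASAVA 1.8 and build mm10 are listed in the submitters' processing notes. Whether counting used strand was not stated. Groups follow the treatment label, and the labels pair no samples. The cells, gene lists and tests were chosen with earlier results of these data known.

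UMIs were summed per library over the selected cells and tested with edgeR 4.0.16 (R 4.3.3, TMM, filterByExpr, quasi-likelihood, Benjamini-Hochberg 0.05 over all genes). Differences from the P 1 to 10 barcodes used limma 3.58.1 (prior count 1, trended eBayes). Alternatives used DESeq2 1.42.0 and limma-voom. Single values were compared by exact two-sided permutation over 20 assignments. Log2 ratios add 1 CPM. Doublets were scored against simulated pairs (50 neighbours, 0.8% per 1000 barcodes marked) and kept. Sequences are RefSeq's, GRCm38.p6. Code was checked on simulated data.

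Genes were named by rule: the 6 markers, the 10 of highest level, the 12 largest and 8 smallest ratios to the P 1 to 10 barcodes and 8 and 8 along P at 200 CPM or more, the 5 smallest p for smoking at 10 CPM or more, and the 2 highest of each list, since no gene passed. Others are said to have been picked afterwards. Genes sharing a symbol (127) were kept apart by identifier.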

Additional observations from a re-analysis of the deposited data

How the results depend on the processing

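The count of genes called between smoking and control was 0 higher and 0 lower by edgeR, and depended on settings. It was 0 and 0 at a UMI minimum of 5000, a P minimum of 5, without barcodes of high doublet score, in equal tertiles of P, with free RNA subtracted, with RLE size factors, by limma-voom and with the 4 defining genes left out. A UMI minimum of 20000 gave 5 higher and 113 lower, and a P minimum of 20 gave 22 and 99, with 76 genes in common. A mitochondrial limit of 5% gave 1 and 9, leaving out cells over 100000 UMIs 1 and 10, thinning to 10000 UMIs 2 and 8, no filter on low counts 271 and 407, and DESeq2 55 and 227. Leaving out 1 library at a time gave 0 to 849 higher and 0 to 763 lower, with the highest values without control 3, which called all 118 genes of the 20000 UMI setting. Without smoking library 3 it was 2 and 2, and without control 2 it was 1 and 0. The cause was not tested. The free RNA, 100000 UMI and narrower neighbour (P 2 to under 10) settings were added after seeing the data.

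The 5 named genes stayed lower in smoking under all 21 alternatives, and 7 or 8 of these put each past the threshold. Genes whose smoking effect differed from the P 1 to 10 barcodes numbered 0 under 12 of 13 alternatives and 1 at a P minimum of 20. The share of condensing spermatids was higher in smoking under 12 of 12 alternatives, by at least 3.78 percentage points, and by 3.85 to 7.53 leaving out 1 library. The largest difference, 16.9 points, was in the share of barcodes with at least 10000 UMIs, a smaller denominator than that of the main share. At 5000 UMIs the groups overlapped (exact permutation p = 0.2). Genes per cell were lower under 10 of 10, by -149 to -62.8, and -149 to -80.5 leaving out 1 library. With 3 libraries per group and no link to mice, differences between mice and between libraries cannot be told apart. Controls 1 and 2 rest on 220 and 188 cells. No paired analysis was possible because the numbers 1 to 3 only name the libraries within a group and no label ties a number to a litter, batch or day.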
